A study of Rattus norvegicus with 18 samples.

Results

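The genes described here are 36 genes of glycolysis and of the response to low oxygen, measured in rat primary hepatocytes treated with 4 chlorobenzene compounds. They were chosen by name: 23 cover glucose uptake, the glycolytic steps and the handling of pyruvate and lactate, and 13 are other genes of oxygen sensing and of the hypoxia response. Expression was read on one-colour Agilent arrays, and 34 of the 36 were measured (22 of glycolysis and 12 of hypoxia), out of 21590 genes tested. No probe was matched to Egln1, an oxygen-sensing prolyl hydroxylase, so it was not analysed here. Hk1, a hexokinase, has a probe that lay well above background on 0 of 3 arrays with each compound, on 2 VC_1 arrays and on 1 VC_2 array, and it was left out as too dim.

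All cells were cryopreserved hepatocytes of male Sprague Dawley rats, cultured for 24 h before treatment. The groups were DDMB, DDEB, CDMB and CDEB, each at 300 µM for 24 h, and 2 vehicle groups that received DMSO for the same time, named VC_1 and VC_2. Each of the 6 groups holds 3 arrays, described by the submitters as independent experiments, and the labels do not say whether these came from different animals. The control of DDMB, CDMB and CDEB is VC_1 and that of DDEB is VC_2, because the design text names 2 lots of chips. The series asks how the modes of action of these p-dialkoxy chlorobenzenes compare. The compounds are known here by their code names only, so their responses are compared without reference to structure.

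Glycolysis splits glucose into pyruvate, yielding ATP without oxygen, and in the liver it runs against gluconeogenesis, which uses many of the same enzymes in the other direction. When oxygen is low, the prolyl hydroxylases no longer mark the transcription factor subunit HIF-1α for destruction, and HIF-1 then raises genes of glucose uptake, of glycolysis, of lactate export and of adaptation to low oxygen. In hepatocytes a second control acts through glucose itself: the factor ChREBP binds carbohydrate response elements, of which the one in the promoter of the liver pyruvate kinase gene Pklr is the classic example.

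The arrays were even in the share of spots above background and in saturation. Between 61.0% and 64.3% of spots were well above background, no probe spot was saturated, and the number of arrays limits the precision. The spike-in ratio, weak over strong in percent, was not even. It was 1.98 to 2.04 in VC_1 and 1.78 to 2.02 with DDMB. With CDMB it was 1.23 to 1.32 and with CDEB 1.21 to 1.28. In VC_2 it was 1.73 to 1.83, against 1.09, 1.18 and 1.66 on DDEB replicates 1, 2 and 3. The part of this ratio in the results below was not tested. Hepatocyte markers were present throughout: 10 of 10 listed genes passed the filter on dim probes. Of 6 Kupffer cell or macrophage markers 2 passed (Cd68 and Clec4f), whereas Cd163, Marco, Vsig4 and Cd5l did not. Of the other lists, 5 of 7 stellate cell markers, 2 of 5 endothelial, 3 of 4 bile duct, 2 of 4 erythroid and 6 of 8 cell cycle genes passed, and none of these genes was called changed with any compound. In bulk RNA, fewer cells of a type and less RNA per cell cannot be told apart. Levels below are log2 relative signals, the log2 of a probe's processed intensity minus the array's 75th percentile, so that 0 is as bright as that percentile. They are compared between arrays for 1 probe and never between probes.

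Promoter sequence was examined because many of the genes moved together between arrays, as described below. The core of the hypoxia response element was searched as ACGTG or GCGTG on both strands, in the 300 bases from 250 before to 50 after each RefSeq gene start (build GRCr8). The palindrome CACGTG counts on both strands. The core occurred in 21 of the 33 genes with a promoter sequence (63.6%), in 13 of 22 glycolysis genes (59.1%) and in 8 of 11 other hypoxia genes (72.7%), against 41.6% of 33469 promoters of the same length. The promoters printed here are examples, and no result below rests on a motif. Ankrd37, a small ankyrin-repeat gene, is shown for its 5 matches, though Ldha had 6 and P4ha2 also had 5. Slc2a1 is shown for its 4 matches and because it was the only one of the 34 genes that passed the test. Pklr is shown for its carbohydrate response element. Capitals mark the motif matches. All 3 windows lie on the + strand: Ankrd37 at chr16:53001257-53001556, Slc2a1 at chr5:138002272-138002571 and Pklr at chr2:176841014-176841313.
Ankrd37: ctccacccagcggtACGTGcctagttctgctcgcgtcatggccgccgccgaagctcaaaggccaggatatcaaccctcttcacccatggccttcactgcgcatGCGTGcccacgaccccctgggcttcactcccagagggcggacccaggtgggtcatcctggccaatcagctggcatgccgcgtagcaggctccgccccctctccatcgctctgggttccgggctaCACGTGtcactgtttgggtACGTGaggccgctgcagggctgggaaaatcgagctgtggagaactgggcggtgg
Slc2a1: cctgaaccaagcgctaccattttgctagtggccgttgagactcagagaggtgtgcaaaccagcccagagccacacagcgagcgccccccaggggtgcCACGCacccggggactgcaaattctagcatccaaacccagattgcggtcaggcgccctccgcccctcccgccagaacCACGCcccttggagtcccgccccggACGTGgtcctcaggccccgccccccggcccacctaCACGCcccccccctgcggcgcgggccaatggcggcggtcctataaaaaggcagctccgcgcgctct
Pklr: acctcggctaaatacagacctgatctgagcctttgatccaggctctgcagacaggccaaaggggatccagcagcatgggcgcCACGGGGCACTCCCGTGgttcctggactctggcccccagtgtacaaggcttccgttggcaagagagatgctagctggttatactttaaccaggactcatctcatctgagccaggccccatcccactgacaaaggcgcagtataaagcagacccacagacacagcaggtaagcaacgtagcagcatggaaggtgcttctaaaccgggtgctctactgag
The element of Pklr lies at bases -168 to -152 relative to the gene start, and a match to it was found in 25 of all promoters (0.0747%). The window of Pklr holds no hypoxia core, and neither does that of the lactate exporter gene Slc16a3. Those of the hypoxia genes Vegfa, Egln3 and Adm hold none either. These matches describe letters in a window and do not show that a factor binds there. Whether they go with the levels or changes of the genes was not tested.

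Before compounds are compared, the spread within groups has to be seen, because in these genes it was large. The SD over the 3 arrays of a group had a median over the 34 genes of 0.302 on the log2 scale with DDMB, 0.248 with DDEB, 0.299 in VC_1 and 0.284 in VC_2, against 0.136, 0.19, 0.148 and 0.141 over all genes in the same groups. With CDMB and CDEB it was 0.0682 and 0.0543, below the 0.0951 and 0.0739 of all genes. The median spread of the 34 genes was thus above that of all genes in 4 groups and below it with CDMB and CDEB. With DDMB and in both DMSO groups, the median SD of each list lay above that of at least 77.5% of all genes. With DDEB the hypoxia genes had a median SD of 0.300, above that of 69.8% of all genes. The glycolysis genes had 0.200 with DDEB, above that of 52.4%, and so varied much like all genes there.

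The spread had a direction: 1 array of a group was low for most of the genes at once. VC_1 replicate 3 was the lowest of its group for 28 of 34 genes (47.1% of all genes), and so was VC_2 replicate 3, also for 28 (45.7% of all genes). With DDMB it was replicate 2 that was lowest, for 27 genes (40.7% of all genes), and replicate 1 was highest for 29 (44.3%). With DDEB replicate 3 was lowest for 23 (40.3%) and replicate 1 highest for 24 (32.2%). DDEB replicate 3 was alone on its slide, apart from the other DDEB arrays and VC_2. Slide and replicate therefore cannot be told apart for that array. With CDEB replicate 3 was lowest for 25 (40.8%), within the narrow spread of that group. The low array was thus replicate 3 in 4 of the 6 groups and replicate 2 with DDMB, and with CDMB no array was lowest for more than 14 genes.

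**Figure D1:**
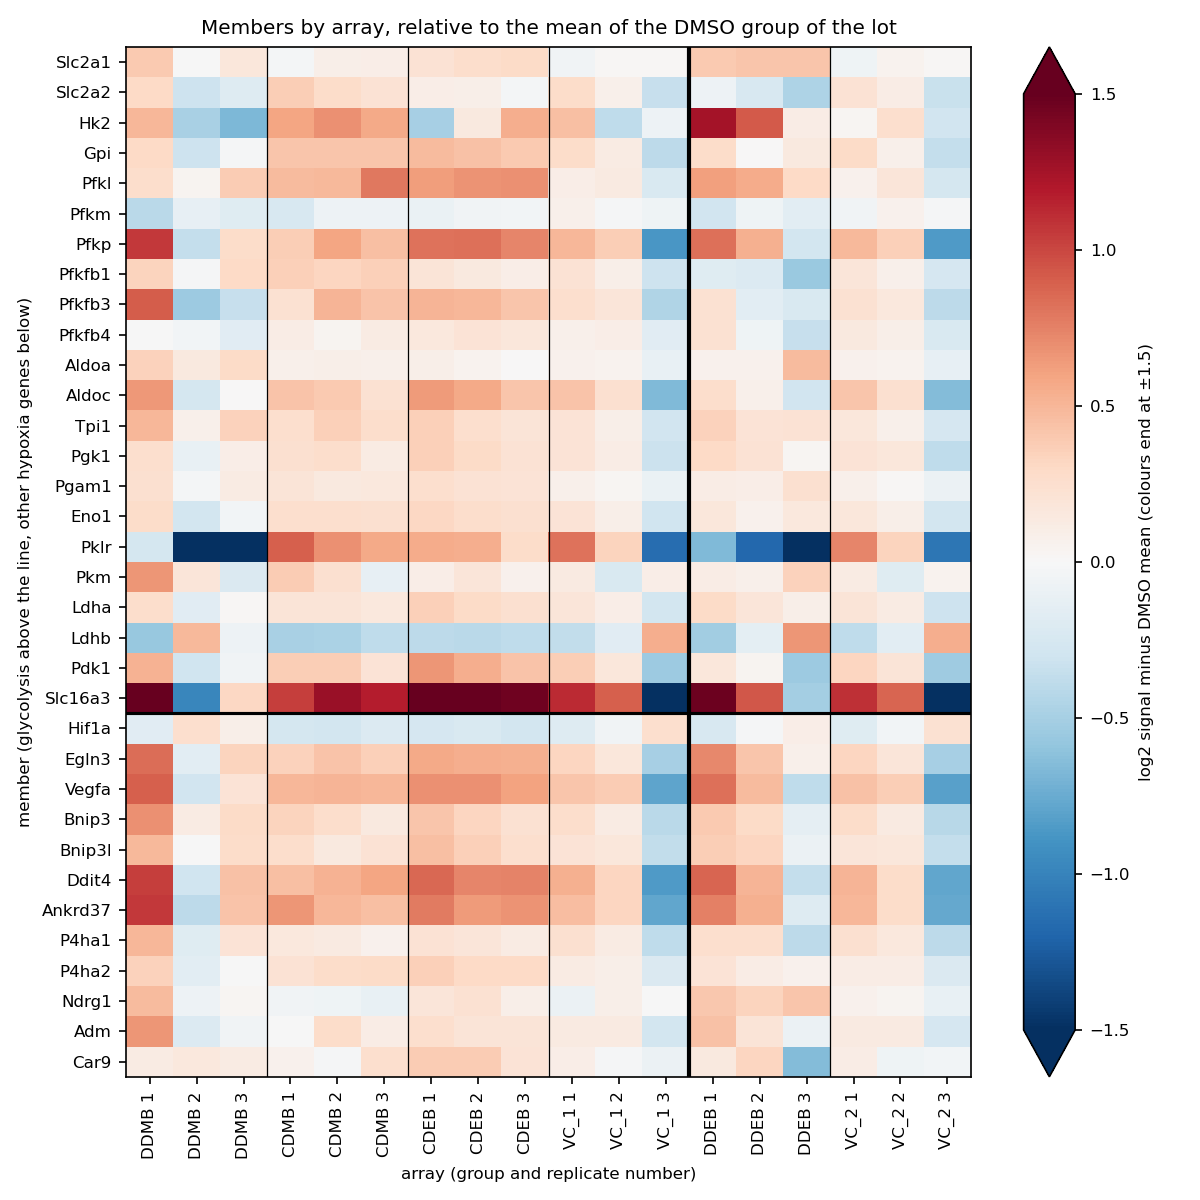
Each cell is the log2 relative signal of a gene (rows) on an array (columns) minus the mean of the DMSO group of its lot, with red above and blue below that mean; the thick vertical line parts the VC_1 set from the VC_2 set. The columns DDMB 2, VC_1 3 and VC_2 3 are pale or blue in most rows, DDMB 1 is red in most, and the columns of CDMB and CDEB are alike within each group; Pklr is the row that is blue with DDMB and DDEB.

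Slc16a3, which encodes the transporter that exports lactate, had the widest spread in DDMB, DDEB and both DMSO groups. It read 4.37, 1.68 and 2.97 with DDMB (replicates 1, 2 and 3), 4.19, 3.65 and 2.21 with DDEB, 3.70, 3.96 and 3.84 with CDMB, and 4.28, 4.27 and 4.12 with CDEB. The DMSO arrays read 3.78, 3.56 and 0.65 in VC_1 and 3.82, 3.60 and 0.75 in VC_2. In each DMSO group the third array was 8.07-fold (VC_1) and 7.75-fold (VC_2) below the mean of the others. The same array was 3.27-fold and 3.07-fold lower for Pklr, 2.47-fold and 2.41-fold lower for the platelet phosphofructokinase Pfkp, 2.43-fold and 2.25-fold lower for Ddit4, an inhibitor of mTORC1 signalling, and 2.28-fold and 2.32-fold lower for the vascular growth factor Vegfa. Ldhb, the lactate dehydrogenase subunit that prevails in heart, and Hif1a itself ran the other way and were highest on replicate 3 in both DMSO groups. Slc2a1 and Ndrg1, a stress-responsive gene of the hypoxia programme, did not follow in VC_1: replicate 3 differed from the mean of the others by 0.03 for Slc2a1 and -0.0025 for Ndrg1 on the log2 scale.

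The DMSO arrays of the same number read alike across the lots. Over the 34 genes, the deviations of an array from its group mean correlated between VC_2 and VC_1 with r = 0.952 for replicate 1, 0.843 for replicate 2 and 0.993 for replicate 3 (n = 34 genes, which share arrays and scaling and are not independent), against 0.635, 0.469 and 0.809 over all genes. Within the 34 genes the number did not set replicates 1 and 2 apart by r: replicate 2 of VC_2 with replicate 1 of VC_1 gave 0.884, and replicate 1 of VC_2 with replicate 2 of VC_1 gave 0.862 (0.35 and 0.374 over all genes). The deviations differed by a median of 0.0183 to 0.0231 between arrays of the same number, against 0.133 and 0.105 in these crossed pairs. The same replicate was lowest in both groups for 30 of 34 genes. The difference VC_2 minus VC_1 varied over the 3 numbers by a median of 0.065, where the arrays of 1 group ranged over a median of 0.55 in VC_1 and 0.54 in VC_2. The labels do not say whether VC_1 and VC_2 are the same cultures hybridised on 2 lots, so the comparison of DDEB with VC_2 may share control cultures with the other 3 comparisons.

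**Figure D2:**
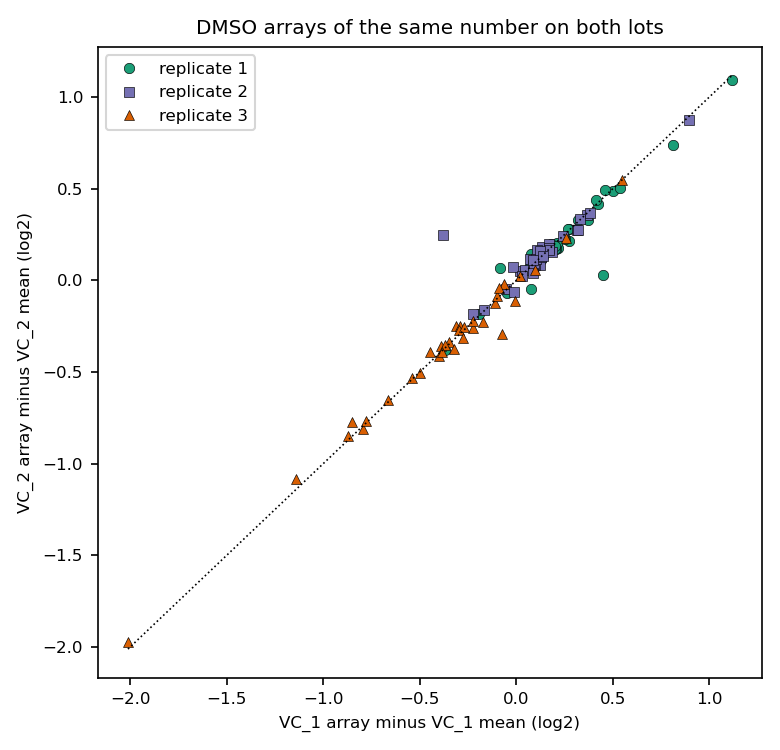
Each point is a gene on a DMSO array: the deviation from the VC_1 mean (x axis, log2) and of the same-numbered array from the VC_2 mean (y axis, log2), for 34 genes and 3 replicate numbers; the dotted line is equality. Most points lie on the line, and the triangles of replicate 3 reach the lowest values, with Slc16a3 at the bottom left; the points farthest off the line belong to Hk2, whose probe is dim.

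Other measurements moved with the low arrays. The 75th percentile used for scaling was highest on them in VC_1 (532, 551 and 640), in VC_2 (534, 535 and 632) and with DDMB (515, 620 and 574). With DDEB it was lowest on the low array (490, 517 and 421). The summed signal of the 6 cell cycle genes, relative to the 75th percentile, was 0.991, 2.42 and 1.32 with DDMB and 1.04, 1.37 and 3.71 with DDEB, against 1.43, 1.59 and 3.53 in VC_1 and 1.37, 1.55 and 3.21 in VC_2. In these 4 groups it was thus highest on the array that was low for most glycolysis and hypoxia genes. With CDMB it lay between 1.08 and 1.36 and with CDEB between 1.08 and 1.20. The summed hepatocyte markers read 1870 to 2502 with DDMB, 2804 to 3008 with DDEB, 2397 to 2538 with CDMB, 2386 to 2649 with CDEB, 1837 to 2427 in VC_1 and 2339 to 3051 in VC_2, with the lowest DDMB and DMSO values on the low arrays. The 2 macrophage markers summed to 0.477 to 4.35 with DDMB, 0.773 to 4.24 with DDEB, 4.06 to 4.61 with CDMB, 3.76 to 4.29 with CDEB, 0.560 to 4.42 in VC_1 and 0.712 to 5.37 in VC_2, and with DDMB, with DDEB and in DMSO they too were lowest on the low arrays. Summed stellate markers lay at 0.98 to 1.56 with DDMB, 1.07 to 1.63 with DDEB, 0.842 to 0.864 with CDMB, 0.958 to 1.13 with CDEB, 0.900 to 1.57 in VC_1 and 1.08 to 1.77 in VC_2. Summed bile duct markers lay at 3.05 to 5.04 with DDMB and 3.60 to 4.96 with DDEB. In VC_1 they lay at 3.39 to 5.19 and in VC_2 at 3.25 to 4.84. In these 4 groups both sums were highest on the low array. Endothelial and erythroid sums were not so in all 4 groups. The median gene was still below its group mean for stellate markers on DDEB replicate 3 (-0.20) and bile duct markers on VC_1 replicate 3 (-0.05). The part of these differences in the results below was not tested.

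Against these controls, 1 of the 34 genes passed the test in any comparison, at an adjusted p below 0.05 over all genes in limma. With DDMB 0 of 34 passed, where 0.551% of all genes did. With DDEB 1 of 34 passed, Slc2a1, where 0.838% of all genes did. With CDMB 0 of 34 passed (0.0417% of all genes), and with CDEB 0 of 34 (0.111% of all genes). At an unadjusted p below 0.05 there were 5 of 34 in each comparison, where 9.89% of all genes lay with DDMB, 15.1% with DDEB, 13.2% with CDMB and 13.3% with CDEB. For 31, 28, 33 and 30 of the 34 genes, with DDMB, DDEB, CDMB and CDEB in that order, the range of the control arrays exceeded the change, as it did for 82.3%, 74.7%, 81.3% and 80.8% of all genes.

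The changes nevertheless leaned upward. Values were above the control for 26 of 34 genes with DDMB, 24 with DDEB, 30 with CDMB and 31 with CDEB, where between 51.5% and 53.5% of all genes were above theirs. The median log2 change of the glycolysis genes was 0.07 with DDMB, 0.15 with DDEB, 0.29 with CDMB and 0.27 with CDEB. That of the other hypoxia genes was 0.21, 0.19, 0.23 and 0.32 for the same compounds, and the median over all genes was 0.01 in each comparison. DDMB, CDMB and CDEB share the VC_1 arrays, so their common direction is not independent.

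The lean was smaller, or turned round, without the low DMSO array. Without VC_1 replicate 3, 14 of 34 genes were above the control with DDMB, 28 with CDMB and 26 with CDEB. The glycolysis median then stood at -0.13 with DDMB, 0.11 with CDMB and 0.14 with CDEB, and the median of the other hypoxia genes at 0.03, 0.05 and 0.19. Without VC_2 replicate 3, 15 of 34 genes were above the control with DDEB, with medians of -0.02 for glycolysis and 0.00 for the other hypoxia genes. DDMB replicate 1, the high array of its group, had a like effect: without it 15 genes were above the control and the medians were -0.09 and 0.05. Leaving out a low control array or a high compound array lowers the changes by arithmetic, and the opposite choice raises them. Without DDMB replicate 2, 28 genes were above VC_1 with DDMB, with medians of 0.20 and 0.36. Without VC_1 replicate 1 it was also 28 with DDMB, with medians of 0.16 and 0.32. For DDEB the 2 arrays that share a slide with VC_2, replicates 1 and 2, gave medians of 0.11 and 0.34 and 28 genes above the control.

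**Figure D3:**
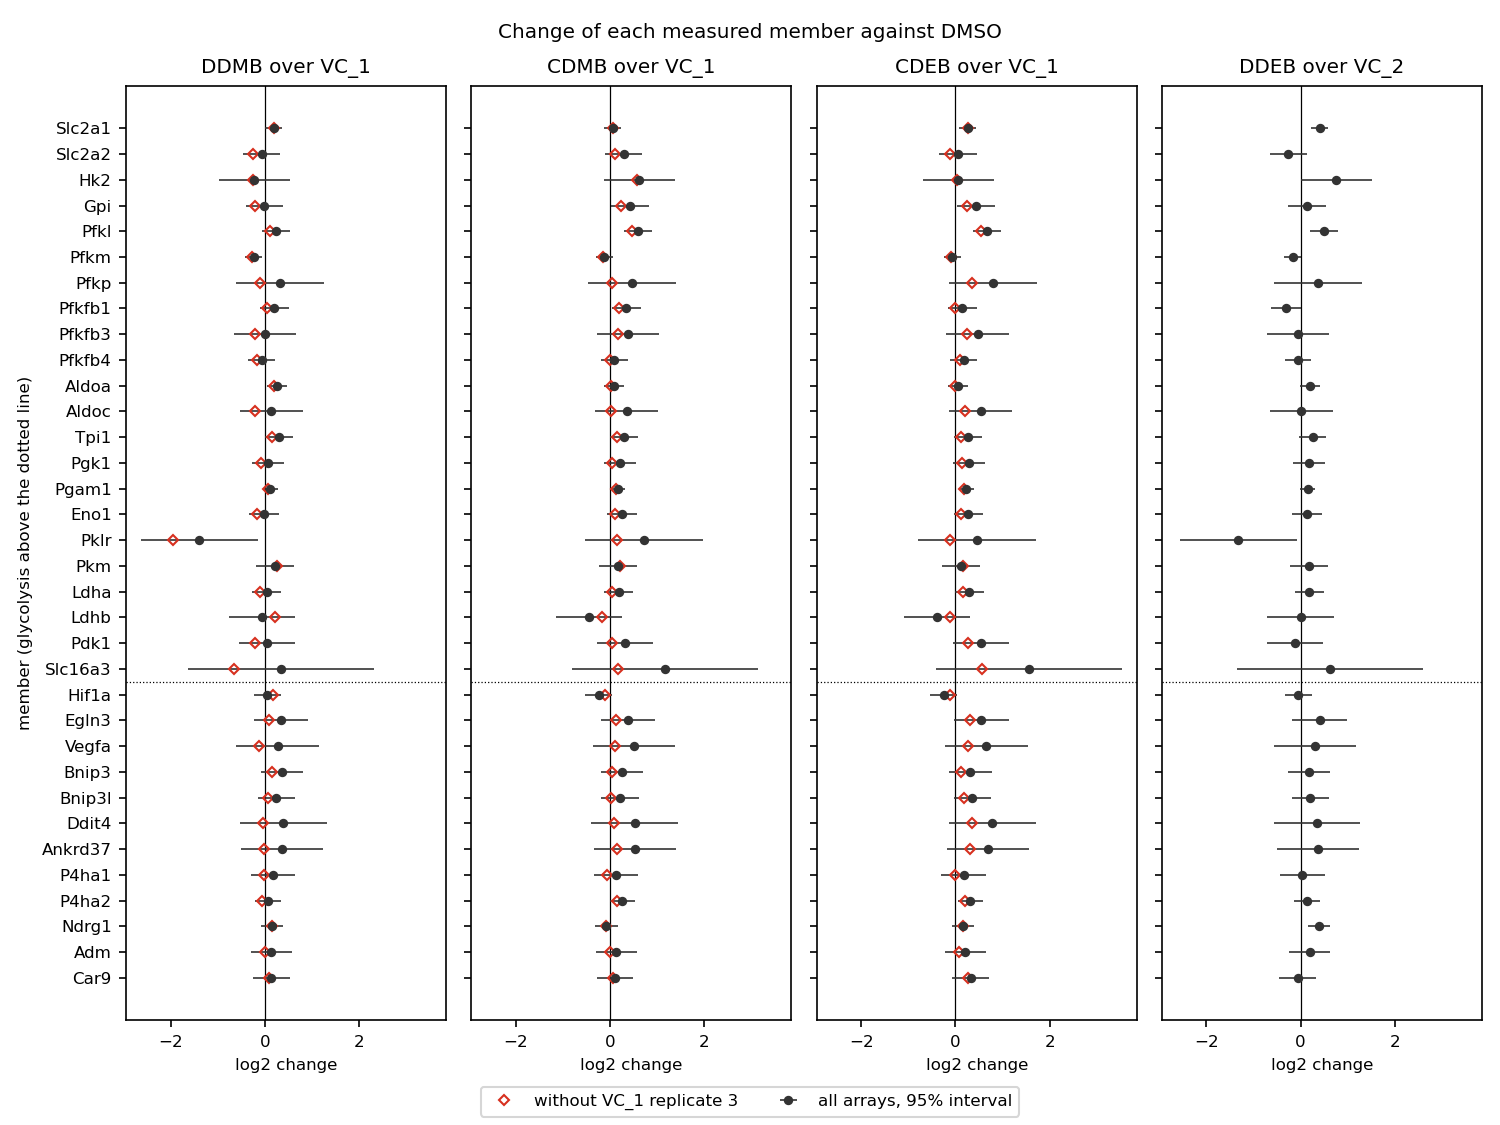
Log2 change of each measured gene (rows) over its DMSO group with the 95% interval of the limma fit over all arrays (filled points, n = 3 against 3), and without VC_1 replicate 3 (open diamonds, no interval drawn). Most intervals cross 0, Slc16a3 and Pklr have the widest, and the diamonds lie to the left of the points for most genes; DDEB was set against VC_2, so it has no diamonds.

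Counts of genes whose arrays do not overlap were highest with CDMB and CDEB, the groups with the narrowest spread. The part of the spread in these counts was not tested. With DDMB, 3 of 34 genes were clear of VC_1 on every array (14.3% of all genes). Aldoa and Car9 were higher (8.74% of all genes) and Pfkm was lower (5.53%). With DDEB there were 6 (16.2% of all genes), of which Slc2a1, Pfkl, Tpi1, Pgam1 and Ndrg1 were higher (10.1% of all genes) and Pfkm was lower (6.1%). With CDMB there were 14 (25.5% of all genes), 11 higher (13.5%) and 3 lower (12.0%). The 11 hold Hk2, whose probe is dim and passed the filter only through DDEB and CDMB. The 3 hold Hif1a, whose second probe was above VC_1 with CDMB (0.25) and with CDEB (0.11). With CDEB there were 22 (29.8% of all genes), and 20 of these were higher, where 15.9% of all genes lay above VC_1 without overlap. The 2 lower with CDEB (13.9% of all genes) were Ldhb and Hif1a, which were also among the 3 lower with CDMB. CDMB and CDEB were on a slide of their own, so slide and compound cannot be told apart in their comparisons with VC_1.

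Glucose enters hepatocytes mainly through the low-affinity transporter Slc2a2, while Slc2a1, the widespread transporter and a HIF-1 target, is low in liver and appears in cultured hepatocytes. Slc2a1 rose with DDEB. It read 3.71, 3.73 and 3.73 with DDEB, against 3.25, 3.37 and 3.34 in VC_2, and every DDEB array was above every VC_2 array. The log2 change was 0.41 ± 0.08 (SE; 95% interval 0.23 to 0.58; limma adjusted p = 0.0352), a 1.32-fold difference. It is a call near the threshold: it held in 8 of 17 alternative settings and was lost in 9, with adjusted p between 0.025 and 0.565, while the log2 change stayed between 0.35 and 0.43. Leaving out VC_2 replicate 1, 2 or 3 or DDEB replicate 1 or 2 ended the call (adjusted p = 0.142, 0.0837, 0.0896, 0.0754 and 0.0888), whereas with slide as a fixed block, which is the comparison within the shared slide, it was 0.0489.

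Slc2a1 read 3.68, 3.28 and 3.46 with DDMB, 3.26, 3.38 and 3.39 with CDMB and 3.51, 3.55 and 3.58 with CDEB, against 3.24, 3.31 and 3.31 in VC_1. All CDEB arrays were above all VC_1 arrays, and DDMB and CDMB arrays overlapped them. The changes were 0.19 with DDMB (adjusted p = 0.458), 0.06 with CDMB (0.799) and 0.26 with CDEB (0.229), none of which passed. Unlike most genes of the set, Slc2a1 kept these values without VC_1 replicate 3 (0.20, 0.07 and 0.27). Slc2a2 ranged over 5.59 to 6.19 with DDMB, 5.45 to 5.84 with DDEB, 6.11 to 6.27 with CDMB and 5.87 to 6.00 with CDEB, against 5.55 to 6.17 in VC_1 and 5.58 to 6.13 in VC_2, and no change passed.

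**Figure D4:**
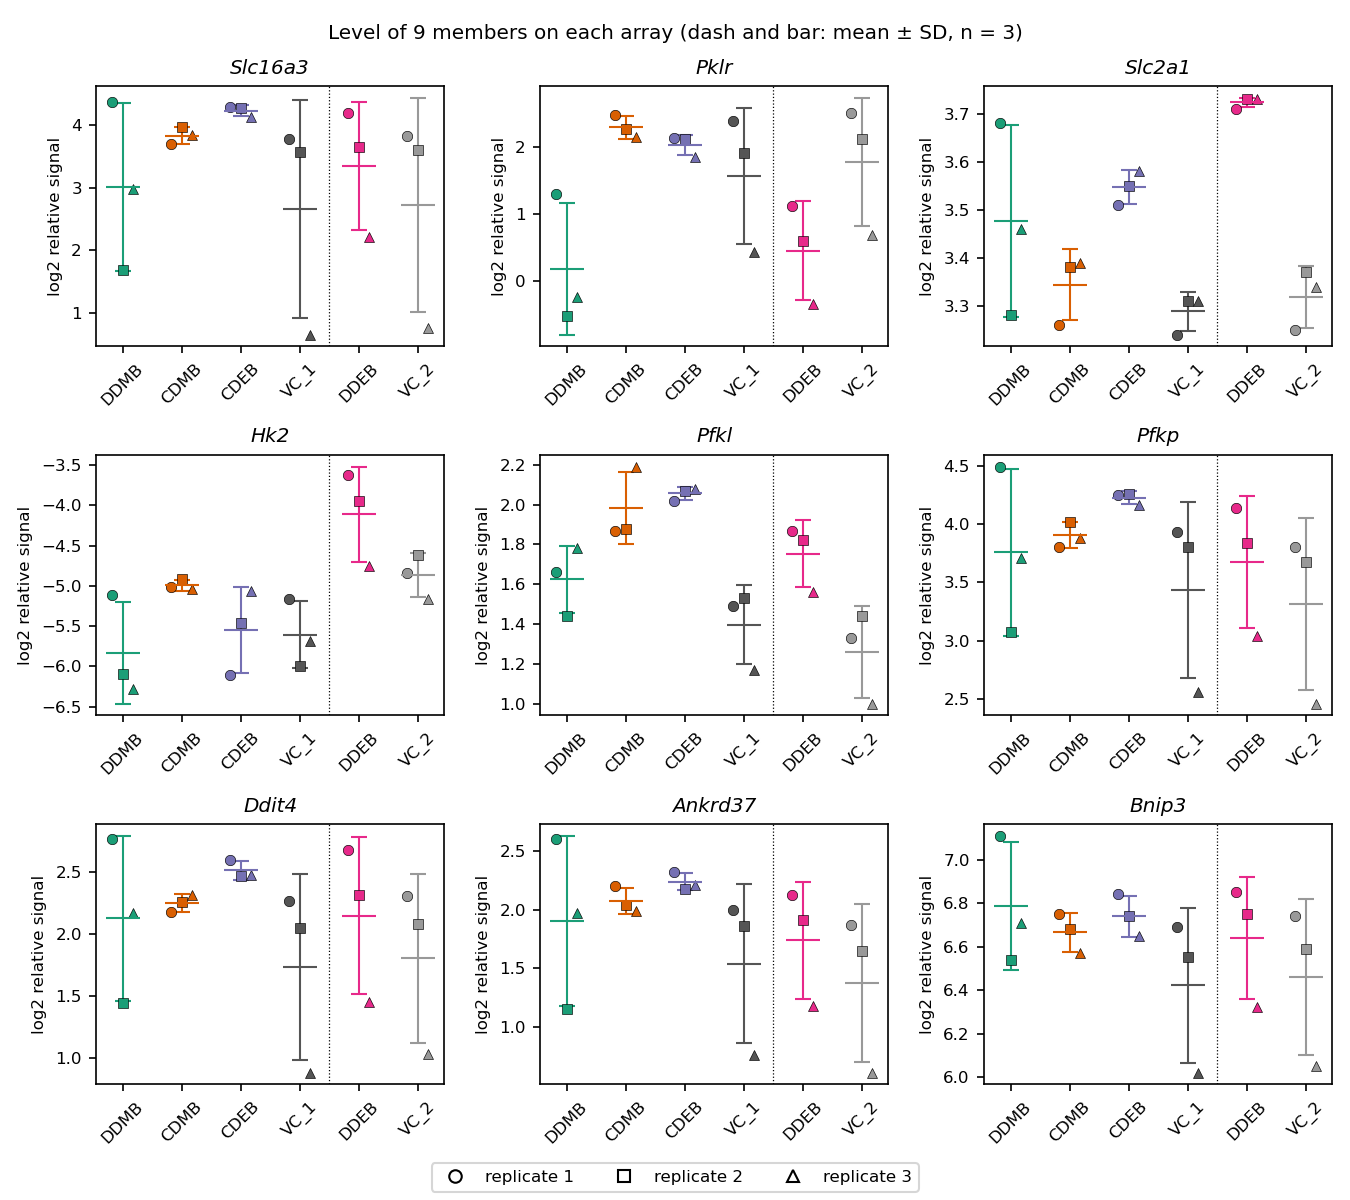
Log2 relative signal (y axes, which differ between panels and do not start at 0) of 9 genes on every array by group, with circles, squares and triangles for replicates 1, 2 and 3 and the mean ± SD as a dash and bar (n = 3). Slc2a1 with DDEB lies above VC_2 without overlap; Pklr lies low with DDMB and DDEB; the DMSO triangles of Slc16a3, Pfkp, Ddit4, Ankrd37 and Bnip3 lie far below the circles and squares.

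The upper steps trap glucose in the cell and commit it to glycolysis. None of the 5 measured genes passed with any compound. Pfkl, the liver subunit of phosphofructokinase, the committing enzyme, came closest. It read 1.66, 1.44 and 1.78 with DDMB, 1.87, 1.82 and 1.56 with DDEB, 1.87, 1.88 and 2.19 with CDMB and 2.02, 2.07 and 2.08 with CDEB, against 1.49, 1.53 and 1.17 in VC_1 and 1.33, 1.44 and 1.00 in VC_2. The arrays of DDEB, CDMB and CDEB all lay above those of their control, and those of DDMB overlapped VC_1. The log2 changes were 0.49 with DDEB (adjusted p = 0.124), 0.59 with CDMB (0.171), 0.66 with CDEB (0.0888) and 0.23 with DDMB (0.660). Without VC_1 replicate 3 they were 0.12 with DDMB, 0.47 with CDMB and 0.55 with CDEB.

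Pfkp read 4.49, 3.07 and 3.71 with DDMB, 4.14, 3.84 and 3.04 with DDEB, 3.80, 4.02 and 3.88 with CDMB and 4.25, 4.26 and 4.16 with CDEB, against 3.93, 3.80 and 2.56 in VC_1 and 3.80, 3.67 and 2.46 in VC_2. It has the pattern of Slc16a3, with 1 low array in each of 4 groups and tight CDMB and CDEB groups. The change was 0.79 with CDEB (95% interval -0.14 to 1.73, adjusted p = 0.442) and 0.36 without VC_1 replicate 3. Pfkm, the muscle subunit, was the only one of the 5 upper-step genes below the control with every compound. Its changes were -0.24 with DDMB, -0.17 with DDEB, -0.13 with CDMB and -0.06 with CDEB, and none of them passed.

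Hk2, the hexokinase of muscle and of proliferating cells, was near the limit of detection, well above background on 1 array with DDMB, 3 with DDEB, 3 with CDMB, 1 with CDEB, 1 in VC_1 and 1 in VC_2. It read -5.11, -6.10 and -6.28 with DDMB, -3.62, -3.95 and -4.76 with DDEB, -5.02, -4.92 and -5.04 with CDMB and -6.11, -5.46 and -5.06 with CDEB, against -5.16, -5.99 and -5.68 in VC_1 and -4.84, -4.62 and -5.16 in VC_2. The first and second DDEB arrays were above all VC_2 arrays and the third lay among them. Since most arrays of VC_1, VC_2, DDMB and CDEB did not measure it, no size of change is given, and its place in the counts over the 34 genes rests on values near background. Gpi, which converts glucose 6-phosphate to fructose 6-phosphate, had changes of -0.01 with DDMB, 0.14 with DDEB, 0.42 with CDMB and 0.44 with CDEB, and its arrays with CDMB and CDEB lay above all VC_1 arrays. Without replicate 3 of the control (VC_1, or VC_2 for DDEB) its changes were -0.20, -0.04, 0.22 and 0.24 in the same order.

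The bifunctional enzymes encoded by Pfkfb1, Pfkfb3 and Pfkfb4 set the level of fructose 2,6-bisphosphate, the activator of phosphofructokinase. Of these 3, none passed. Pfkfb1, the liver form, was below VC_2 with DDEB (-0.31) and above VC_1 with DDMB (0.20), CDMB (0.35) and CDEB (0.15); without replicate 3 of the control these were -0.44, 0.05, 0.19 and -0.0068. Pfkfb3, the inducible form, had 1 array far from the others with DDMB (2.52, against 1.06 and 1.26 on the other DDMB arrays), and its VC_1 arrays read 1.86, 1.79 and 1.16. Pfkfb4 differed from its control by at most 0.17. A second Pfkfb3 probe gave 0.11 with DDEB, against -0.05 on the probe used.

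The lower steps turn the 6-carbon sugar into pyruvate. Of the 8 measured genes none passed, and apart from Pklr their changes were small: between -0.01 and 0.30 with DDMB, 0.02 and 0.25 with DDEB, 0.08 and 0.35 with CDMB, and 0.05 and 0.54 with CDEB. Tpi1 (triose phosphate isomerase) was higher by 0.30 with DDMB, 0.25 with DDEB, 0.29 with CDMB and 0.26 with CDEB, none of which passed, and by 0.16, 0.13, 0.15 and 0.12 without replicate 3 of the control. Pgam1 (phosphoglycerate mutase) was higher by 0.11, 0.15, 0.17 and 0.23 for the same compounds, and its arrays did not overlap the control with DDEB, CDMB and CDEB. Pgk1 (phosphoglycerate kinase) and Eno1 (enolase) were higher by 0.29 and 0.27 with CDEB, and by 0.13 and 0.12 without VC_1 replicate 3. Aldoc, the brain aldolase, was higher by 0.54 with CDEB and by 0.21 without VC_1 replicate 3, and Aldoa by 0.26 with DDMB, where all 3 arrays (4.96, 4.76 and 4.90) lay above VC_1 (4.68, 4.66 and 4.50). For Pkm, the pyruvate kinase of non-hepatic tissues, and for Eno1, other probes gave changes of another sign with DDEB (-0.28 and -0.05, against 0.18 and 0.13 on the probes used).

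Pklr, the liver pyruvate kinase, had the largest change of all 34 genes with DDMB and with DDEB, in the opposite direction to CDMB and CDEB. It read 1.30, -0.52 and -0.24 with DDMB, 1.11, 0.59 and -0.34 with DDEB, 2.47, 2.26 and 2.14 with CDMB and 2.13, 2.11 and 1.85 with CDEB, against 2.38, 1.90 and 0.43 in VC_1 and 2.51, 2.11 and 0.69 in VC_2. DDMB and DDEB overlapped their controls only through the low DMSO array: every DDMB and DDEB array lay below the first and second arrays of its control. The change was -1.39 ± 0.58 with DDMB (SE; 95% interval -2.63 to -0.15; limma adjusted p = 0.423) and -1.32 ± 0.58 with DDEB (95% interval -2.56 to -0.08; adjusted p = 0.301), 2.62-fold and 2.50-fold lower. Neither passed, and the intervals are those of a single gene, not adjusted for the number tested. With CDMB and CDEB the changes were 0.72 (adjusted p = 0.592) and 0.46 (0.740). Without VC_1 replicate 3 they were -1.96 with DDMB, 0.15 with CDMB and -0.11 with CDEB, and without VC_2 replicate 3 the change with DDEB was -1.86. A second Pklr probe gave -1.32 with DDMB, -0.95 with DDEB, 0.70 with CDMB and 0.34 with CDEB.

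Pyruvate is then turned into lactate by lactate dehydrogenase, exported, or oxidised in mitochondria, which Pdk1 restrains by inactivating pyruvate dehydrogenase. None of the 4 genes here passed. Slc16a3, whose arrays are given above, had the largest change of the set with CDMB and CDEB: 1.17 (95% interval -0.81 to 3.14, adjusted p = 0.584) and 1.56 (-0.41 to 3.54, adjusted p = 0.475). Without VC_1 replicate 3 these became 0.16 and 0.56, and the change with DDMB became -0.66, against 0.35 with it. With DDEB it was 0.63 and, without VC_2 replicate 3, -0.36. Without VC_1 replicate 3 the CDEB arrays (4.12 to 4.28) still lay above both VC_1 arrays (3.78 and 3.56). Pdk1 was higher by 0.55 with CDEB and by 0.28 without VC_1 replicate 3, and Ldha, the subunit that favours lactate, by 0.29 with CDEB and by 0.15 without that array. The 4 Pdk1 probes had different signs with DDMB and with DDEB, where its changes were 0.05 and -0.11 on the probe used. Ldhb ran the other way, at -0.44 with CDMB and -0.39 with CDEB, but at -0.17 and -0.11 without VC_1 replicate 3.

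Hif1a encodes the oxygen-regulated subunit itself, which is mainly controlled as a protein and not at its mRNA. Its chosen probe was at -0.25 with CDMB and -0.25 with CDEB, below all VC_1 arrays, but a second probe gave 0.25 and 0.11, so no direction is given for this gene. Egln3, the prolyl hydroxylase that HIF-1 itself raises, was higher by 0.34 with DDMB, 0.40 with DDEB, 0.37 with CDMB and 0.55 with CDEB. None of these 4 changes passed, and without replicate 3 of the control they were 0.09, 0.15, 0.13 and 0.30. Egln3 with CDEB read 3.65 to 3.69, against 2.62 to 3.44 in VC_1.

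Most of the 10 other hypoxia targets were above their control with every compound, and for at least 9 of the 10 the control arrays ranged over more than the change. All 10 were above VC_1 with DDMB and with CDEB, 9 of 10 with CDMB and 9 of 10 above VC_2 with DDEB, and none passed. Without VC_1 replicate 3 only 4 of 10 were above VC_1 with DDMB, 7 with CDMB and 9 with CDEB, and without VC_2 replicate 3 only 4 were above VC_2 with DDEB. Ddit4 read 2.77, 1.44 and 2.17 with DDMB, 2.68, 2.32 and 1.45 with DDEB, 2.18, 2.26 and 2.32 with CDMB and 2.60, 2.47 and 2.48 with CDEB, against 2.27, 2.05 and 0.88 in VC_1 and 2.31, 2.08 and 1.03 in VC_2. All CDEB arrays lay above VC_1, and the other compounds overlapped their control. Its change was 0.39 with DDMB, 0.34 with DDEB, 0.52 with CDMB and 0.78 with CDEB (adjusted p = 0.440). Without replicate 3 of the control it was -0.03, -0.05, 0.09 and 0.36 in the same order.

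Ankrd37, a direct HIF-1 target whose promoter is printed above, read 2.60, 1.15 and 1.97 with DDMB, 2.13, 1.91 and 1.18 with DDEB, 2.20, 2.04 and 1.99 with CDMB and 2.32, 2.18 and 2.21 with CDEB, against 2.00, 1.86 and 0.76 in VC_1 and 1.87, 1.65 and 0.61 in VC_2. All CDEB arrays lay above VC_1, and the arrays had the same order as for Ddit4 with DDMB and DDEB and in both DMSO groups. The changes were 0.37 with DDMB, 0.36 with DDEB, 0.53 with CDMB and 0.70 with CDEB (adjusted p = 0.470). Without replicate 3 of the control they were -0.02 with DDMB, -0.02 with DDEB, 0.14 with CDMB and 0.31 with CDEB.

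Bnip3 and Bnip3l encode receptors that direct mitochondria to autophagy. Bnip3 read 7.11, 6.54 and 6.71 with DDMB, 6.85, 6.75 and 6.32 with DDEB, 6.75, 6.68 and 6.57 with CDMB and 6.84, 6.74 and 6.65 with CDEB, against 6.69, 6.55 and 6.02 in VC_1 and 6.74, 6.59 and 6.05 in VC_2. Every compound overlapped its control, and the changes were 0.36, 0.18, 0.25 and 0.32 for DDMB, DDEB, CDMB and CDEB (0.16, -0.03, 0.04 and 0.12 without replicate 3 of the control). Bnip3l was higher by 0.25, 0.20, 0.21 and 0.36 for the same compounds (0.06, 0.02, 0.02 and 0.17 without that array). Vegfa was higher by 0.27, 0.31, 0.50 and 0.66, but without replicate 3 of the control its changes were -0.13 with DDMB, -0.10 with DDEB, 0.11 with CDMB and 0.26 with CDEB.

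P4ha1 and P4ha2, subunits of the collagen prolyl hydroxylase, were higher by 0.18 and 0.32 with CDEB, and at -0.013 and 0.21 without VC_1 replicate 3. Adm, a vasodilator peptide, was higher by 0.14 with DDMB, 0.19 with DDEB, 0.13 with CDMB and 0.21 with CDEB, and at -0.0014, 0.06, -0.010 and 0.08 without replicate 3 of the control. Ndrg1 read 1.64, 1.57 and 1.65 with DDEB, against 1.30, 1.27 and 1.12 in VC_2, with no overlap and a change of 0.39 (adjusted p = 0.127). Car9, a carbonic anhydrase and a HIF-1 target in tumours, was dim, at -2.58 to -1.60 with DDEB, against -1.99 to -1.81 in VC_2, and its changes lay between -0.06 with DDEB and 0.32 with CDEB.

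The compounds were given at 1 dose and 1 time, so 6 pairs were compared directly, DDEB through its change over VC_2. None of the 34 genes passed in any pair, by adjustment within the pair or over the 6 pairs. With adjustment within the pair, 0 of all genes passed for CDEB against CDMB, 0.676% for DDMB against CDMB, 3.27% for DDMB against CDEB, 0.0% for the DDEB effect against the DDMB and against the CDMB effect, and 0.00463% for the DDEB effect against the CDEB effect. With adjustment over the 6 pairs, 13, 79, 137, 7, 4 and 5 genes passed in these pairs, in the same order. At an unadjusted p below 0.05 in limma there were 2 of 34 genes for CDEB against CDMB (4.71% of all genes), 5 for DDMB against CDMB (16.3%), 4 for DDMB against CDEB (20.2%), and 1, 4 and 2 for the DDEB effect against those of DDMB (5.78%), CDMB (5.82%) and CDEB (6.6%). The median half-width of a gene's 95% interval was 0.397 for the direct pairs and 0.562 for pairs with DDEB.

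Pklr had the lowest adjusted p of the 34 genes in the pairs of DDMB with CDMB and with CDEB. It differed by -2.11 between DDMB and CDMB (95% interval -3.35 to -0.86, adjusted p = 0.110) and by -1.85 between DDMB and CDEB (-3.09 to -0.60, adjusted p = 0.0953), with every DDMB array (-0.52 to 1.30) below every CDMB array (2.14 to 2.47) and every CDEB array (1.85 to 2.13). The differences in these pairs do not involve the DMSO arrays, but their intervals and p-values do, since the spread is shared over all 6 groups. The SD of Pklr was 1.01 in VC_1, 0.96 in VC_2 and 0.98 with DDMB, against 0.17 with CDMB and 0.15 with CDEB. The DDEB effect differed from the CDMB effect by -2.04 (-3.80 to -0.28) and from the CDEB effect by -1.78 (-3.54 to -0.02), both with adjusted p over 0.7. Between the DDEB and DDMB effects the difference was 0.07 (-1.69 to 1.83), an interval that leaves room for large differences. Leaving out DDMB replicate 1 brought the Pklr difference from CDMB to -2.67 (adjusted p = 0.0317) and from CDEB to -2.41 (0.0361). With slide as a random block the adjusted p was over 0.99 in both pairs, since DDMB and the other compounds lie on different slides.

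CDEB and CDMB shared a slide and both had tight groups. Of 34 genes, 12 were higher and 4 lower with CDEB without overlap, 16 in all, where 19.7% of all genes did not overlap. The higher ones included Slc2a1 (0.20, 95% interval 0.03 to 0.38), Slc16a3 (0.40, -1.58 to 2.37), Ndrg1 (0.25, 0.01 to 0.48), Vegfa, Ddit4 and Egln3, and the lower ones were Slc2a2, Pfkfb1, Pklr and Hk2, the last read on 1 CDEB array above background. The lowest adjusted p was 0.976, for Slc2a1. The intervals use a spread shared over all 6 groups.

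Of 48 other genes of these pathways, 40 were measured. With DDMB 1 rose and 0 fell (0.551% of all genes passed), and with DDEB 1 rose and 0 fell (0.838%). With CDMB (0.0417%) and CDEB (0.111%) 0 passed. The median changes were 0.07, 0.10, 0.14 and 0.18 for DDMB, DDEB, CDMB and CDEB. At an unadjusted p below 0.05 in limma there were 4 of 40 with DDMB (9.89% of all genes) and 10 with DDEB (15.1%). With CDMB there were 5 (13.2% of all genes) and with CDEB 15 (13.3%). Pdk4, the starvation-induced pyruvate dehydrogenase kinase, rose with DDMB: it read -3.00, -2.78 and -2.78 with DDMB, against -3.63, -3.42 and -3.52 in VC_1, a change of 0.67 (adjusted p = 0.0400). With DDEB it read -3.21, -3.04 and -2.94, against -3.77, -3.48 and -3.76 in VC_2 (0.60, adjusted p = 0.0511), just short of the threshold. Epas1, which encodes HIF-2α, rose with DDEB: it read -1.41, -1.16 and -1.16 with DDEB, against -1.66, -1.58 and -1.80 in VC_2, a change of 0.44 (adjusted p = 0.0483). Both calls lie at the threshold and were lost in 11 of 16 (Pdk4) and 13 of 17 (Epas1) alternative settings, with adjusted p of 0.0292 to 0.376 and 0.0345 to 0.606, and among these each left-out array except replicate 1 of the compound ended the call.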

How the data were processed

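The genes and the other lists were chosen with earlier results of these data known. Per the file headers, Agilent Feature Extraction 10.7.1.1 read the Cy3 intensity of each spot, and the deposited processed intensity has the background removed. Its log2, as a mean over unflagged spots of the same probe, was taken relative to the array's 75th percentile over probes (421 to 640). Probes well above background on the 3 arrays of any group were used, and the brightest such probe stood for its gene (50 of 53 probes of the listed genes qualified, and 10 genes had several). Names came from RefSeq (GRCr8) through the probe's accession. A model with a mean for each of the 6 groups (18 arrays, 12 residual degrees of freedom) was fitted by lmFit and eBayes of limma 3.58.1, run in R 4.3.3. Benjamini-Hochberg adjustment ran over 21590 genes within a comparison and, between compounds, also over the 6 pairs. P-values reflect only how far these cultures differ. The fit was tested on simulated data.

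The authors' deposited tables hold normalized signal on a linear scale in 2 sets, whose scaling no source used here gives; on bright probes it matched the processed intensity divided by the array's 75th percentile, up to a constant. They served as an alternative. The background-correction alternative used the median spot intensity. Values of every array are given for each listed gene that passed and for the 4 with the largest change in each comparison.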

Additional observations from a re-analysis of the deposited data

How the results depend on the processing

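Of 362 further values of the counts and medians, 62 moved; the other 300 stayed within 1.5 times the count, or moved a median by less than the spread between arrays, though some of these medians changed sign, as given below. Counts of all genes called, which were 119 with DDMB, 181 with DDEB, 9 with CDMB and 24 with CDEB, moved most.
With normexp on the median intensity they were 65, 72, 2 and 8; without the filter on dim probes 52 with DDMB, 0 with CDMB and 6 with CDEB; with probes above background on all arrays 22 with CDMB and 39 with CDEB; with only the 6 arrays compared 0 in every comparison; with slide as a random block 193 with DDMB and 0 with CDMB and CDEB; with slide as a fixed block 354 with DDEB; with quantile normalization 325 with DDEB; and, taken from the deposited tables, the counts were 0 with DDEB, 1 with CDMB and 8 with CDEB. Taking same-numbered DMSO arrays as 1 culture, an alternative chosen after seeing the data, gave 112 with DDEB, 2 with CDMB and 14 with CDEB.
The call of Slc2a1 with DDEB, the 1 listed gene called, was lost (0 called) with normexp (adjusted p = 0.153), without the filter (0.0696), with only the 6 arrays (0.558) and from the deposited tables (0.565). The cause was not tested, except that the fit to 6 arrays has fewer samples.
Leaving out 1 array in turn gave 39 to 204 genes called with DDMB, 48 to 354 with DDEB, 0 to 6 with CDMB and 0 to 9 with CDEB, 0 to 1 listed genes with DDEB, and, between compounds, 0 to 1 for DDMB against CDMB and 0 to 2 for DDMB against CDEB. The direction of a median turned only without VC_1 replicate 3 (DDMB), DDMB replicate 1 or VC_2 replicate 3 (DDEB), each for glycolysis.
Same-numbered arrays of a compound and its control have no stated common source, their deviations correlated between -0.42 and 0.56 over genes, and not every array correlated best with its own number, so the numbers were not taken to pair them. With the replicate number as a block, 421 genes were called with DDEB, 16 with CDMB and 38 with CDEB, and Pklr was called in 2 pairs, 1 listed gene in each: DDMB against CDMB (adjusted p = 0.0213) and DDMB against CDEB (0.0202). Under quantile normalization the share of higher calls was 29.9% with DDMB and 47.7% with DDEB, against 41.2% and 70.2%. Under normexp it was 50% of 2 called genes with CDMB and 75% of 8 with CDEB, against 77.8% of 9 and 50% of 24. These are too few genes to show a shift in direction. The number of arrays, 3 a group, and the dimness of Hk2 limit what can be detected.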
